A study of Mus musculus with 5 samples.

Results

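The cells described here were heart macrophages that carried complement C1q and abundant MHC class II transcripts. They had few transcripts of the resident macrophage genes Lyve1, Folr2, Timd4 and Cd163 or of the inflammatory genes Cxcl9 and Fcgr4. They were chosen from the measured counts: a cell barcode was taken when mitochondrial genes made up at most 10% of its UMIs (unique molecular identifiers, which count captured RNA molecules), C1qa, C1qb and C1qc summed to at least 3 UMIs, and H2-Aa, H2-Ab1 and Cd74 summed to at least 20. In addition, Lyve1, Folr2, Timd4 and Cd163 together, Cxcl9 and Fcgr4 together, Cd3d, Cd3e and Cd3g together, and Cd79a and Ms4a1 together could each reach at most 1 UMI. This gave 776 of 47319 barcodes, or of the 38337 that passed the mitochondrial limit. Among the 5907 C1q-positive cells within the Cd3 and B cell limits, 2 other classes served as comparison: 2253 resident-like macrophages, with at least 2 UMIs of Lyve1, Folr2, Timd4 and Cd163 and at most 1 of Cxcl9 and Fcgr4, and 1164 Cxcl9 or Fcgr4 macrophages, with at least 2 and at most 1 the other way round. Dendritic cells (197) had at most 1 C1q UMI, at least 20 class II UMIs and at least 2 UMIs of Flt3, Zbtb46, Cd209a, Xcr1, Clec9a and Ccr7. Endothelial cells (at least 3 UMIs of Cdh5 and Pecam1) and fibroblasts (at least 5 of Col1a1, Dcn and Pdgfra) had no UMI of C1q or of the leukocyte gene Ptprc. All of the 17 genes of the members' rule were used to choose the cells, and their values are given only as a description.

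The study profiled single cells of mouse hearts in a genetic model of myocarditis caused by loss of immune checkpoints. Control mice were Ctla4+/+Pdcd1-/- (4 mice, 2 libraries, called control 1 and control 2) and disease mice were Ctla4+/-Pdcd1-/- (10 mice, 3 libraries, called disease 3, 4 and 5). By these genotypes both groups carry the Pdcd1 knockout, in the gene of the PD-1 receptor, and they differ in 1 copy of Ctla4. The genotype labels of control 2 and disease 4 read Pdcd2-/- and that of disease 5 reads Pdcd3-/-, while the series design gives Pdcd1-/- for every mouse. Hearts were digested with enzymes and pooled, and nucleated living cells (DRAQ5+DAPI-) were sorted without selection for a lineage. Age, sex and the mice that entered each library are not given in the sources used here, so p-values below measure the spread between libraries of pooled hearts. In the T cells of these libraries, Ctla4 stood at 346 and 66.0 CPM (counts per 1000000 summed UMIs) in the controls and at 139, 531 and 468 in the disease libraries, so its level did not separate the genotypes. Pdcd1 transcripts were present in the T cells of all 5 libraries, with 473 and 103 CPM in control and 246, 869 and 714 CPM in disease libraries. Which part of Pdcd1 the knockout removes is not given in the sources used here, so this level is no check of the labels.

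Macrophages take up dying cells and debris, and C1q, the first component of the classical complement pathway, is made in tissues mainly by them. MHC class II molecules carry peptides to CD4 T cells. Their alpha and beta chains meet the invariant chain Cd74 in the endoplasmic reticulum, the H2-DM proteins exchange its remnant for a peptide, and the coactivator Ciita switches the genes on together. In the heart, long-lived resident macrophages that mark with Lyve1, Folr2 and Timd4 are distinguished from macrophages renewed by blood monocytes, which enter tissue through the chemokine receptor Ccr2.

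The 5 libraries contributed 278, 103, 97, 168 and 130 members in the order control 1, control 2, disease 3, disease 4 and disease 5, with 475121 to 1497164 UMIs in the summed members. Their median depth was 3397.5 to 4781.5 UMIs per cell, lower in each library than that of the resident-like macrophages (4743.5 to 6335) and of the Cxcl9 or Fcgr4 macrophages (6652 to 10565.5). A limit of 1 UMI is easier to meet in a shallow cell. The comparisons between classes were repeated on cells thinned to 2000 UMIs, but the cells were chosen before thinning, so this evens the depth of the values and not that of the selection. Cells with fewer than 2000 UMIs were left out of all thinned results, which kept 217, 79, 84, 107 and 111 members. At the class II limit, the cells with 20 to 24 UMIs numbered 23, 5, 3, 10 and 6, and otherwise eligible cells with 15 to 19 UMIs numbered 21, 4, 8, 24 and 10. Scrublet marked 27, 5, 4, 12 and 8 members as doublets. A single member barcode occurred in a pair of libraries (control 1 and disease 3), and the libraries shared 86 to 161 barcodes overall.

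Macrophage markers outside the rule were abundant in members. The 10 markers summed to 16188 to 21209 CPM in the members of a library, against 2185 to 4474 in dendritic cells and 166 to 316 in endothelial cells and fibroblasts. After thinning to 2000 UMIs, Csf1r, the receptor for the macrophage growth factor, was found in 71.4%, 83.5%, 72.6%, 63.6% and 77.5% of the members with at least 2000 UMIs. Flt3, which defines dendritic cells, had 1, 0, 0, 1 and 0 UMIs, and the summed dendritic markers reached 16.8 to 80.2 CPM. Some members carried transcripts of other cell types or few macrophage transcripts: at least 5 fibroblast-marker UMIs were found in 15.5%, 2.91%, 6.19%, 17.3% and 4.62% of members, and fewer than 10 macrophage-marker UMIs in 8.63%, 5.83%, 5.15%, 25.6% and 7.69%. Control 1 and disease 4 stood apart on the first of these measures and disease 4, the library with the shallowest members, on the second. Mixed droplets, free RNA and low depth cannot be told apart here. Without the members that carried fibroblast or endothelial transcripts or few macrophage markers, 205, 92, 82, 104 and 107 remained.

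The label calls these cells class II high and non-resident, and the genes of the rule are given first as a description. The median share of UMIs from H2-Aa, H2-Ab1 and Cd74 was 5.05%, 5.91%, 6.98%, 3.73% and 6.23% in members. In resident-like macrophages it was 3.62%, 1.33%, 1.51%, 2.57% and 0.709%, and 55.1% to 85.8% of those cells also reached 20 class II UMIs. Members had to reach this number and resident-like macrophages did not, so the selection itself favoured this order. No comparison at an equal class II minimum was made. The Cxcl9 or Fcgr4 macrophages had no such minimum either and reached 5.92% to 9.88%. Resident genes that the rule did not use were present as well: Mrc1, the mannose receptor, had a UMI in 78.4%, 79.6%, 84.5%, 67.9% and 78.5% of members and F13a1, a coagulation factor subunit of resident macrophages, in 43.5% to 69.1%. Ccr2 had a UMI in 22.7%, 25.2%, 18.6%, 19% and 26.2% of members. Among cells of at least 2000 UMIs, thinned to 2000, these shares were 14.7%, 22.8%, 13.1%, 15.0% and 19.8%, against 3.0% to 5.5% of resident-like macrophages and 0% to 0.2% of endothelial cells. The 95% Wilson intervals of the members (7.47% to 33.2% over the libraries) lay above those of endothelial cells (at most 1.07%), and 0 of the thinned endothelial cells of disease 5 allows a share of cells with a UMI at this depth of up to 0.214%, which does not limit the share that express the gene. Such intervals cover counting error only. Most members therefore had no Ccr2 UMI at this depth, which does not show that they lack the receptor.

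Of the kept cells, members were 3.0% and 1.84% in controls and 1.67%, 1.69% and 1.69% in disease (2.42 ± 0.817, SD, n = 2, against 1.68 ± 0.0126, n = 3). The 95% Wilson interval was 2.67% to 3.37% in control 1, while that of control 2 (1.52% to 2.23%) overlapped those of the disease libraries (1.37% to 2.03% over the 3). As a share of C1q-positive cells they were 14.8% and 19.4% against 14.2%, 8.84% and 14.1%. The disease libraries lay below both controls on each measure, by 0.739 and 4.75 percentage points on average, and the two-sided exact permutation test gave p = 0.1 for each (adjusted over both 0.1), the smallest this design allows. The direction depended on the limit on Cxcl9 and Fcgr4: without it the differences were 0.832 and 5.50 points higher in disease (exact permutation p = 0.9 and 0.7). Without the limit the shares of kept cells were 5.44% and 2.18% in controls and 2.16%, 8.13% and 3.63% in disease, with disease 4 highest. With disease 4 also left out, an alternative chosen after seeing the data, the differences were -0.91 and -0.59 points. The Cxcl9 or Fcgr4 macrophages, which this limit removed, were 14.3% and 3.77% of C1q-positive cells in the controls and 4.53%, 35.9% and 17.7% in disease. In pooled digests, fewer cells of a type and fewer cells recovered cannot be told apart.

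**Figure D1:**
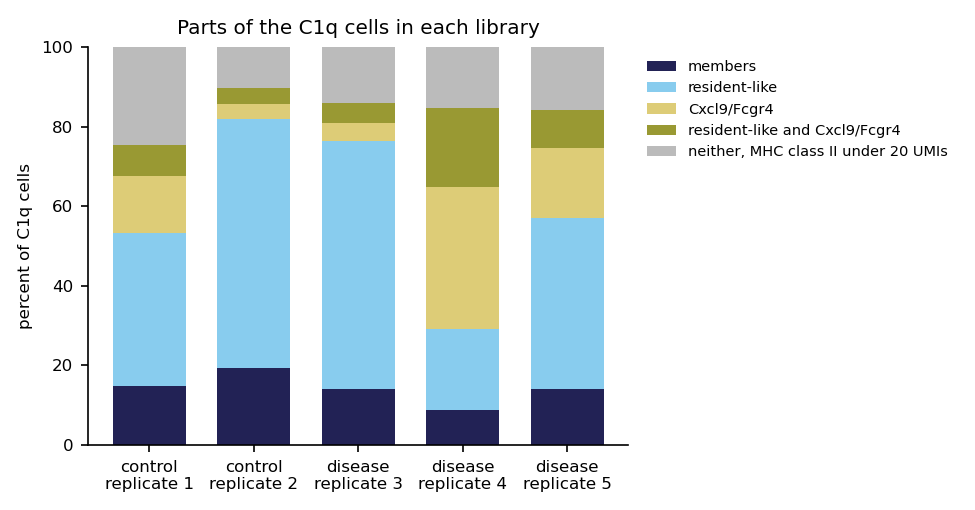
Share of C1q-positive cells (vertical axis, percent) in each of the 5 libraries, split by the limits of the selection rule. Members were 8.84% to 19.4% of these cells, and the share of Cxcl9 or Fcgr4 macrophages varied more between libraries, from 3.77% to 35.9%.

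Against resident-like macrophages of the same libraries, the members differed in many genes. With edgeR's quasi-likelihood test on summed UMIs, library as a block and Benjamini-Hochberg adjustment, 457 of 10518 genes (4.34%) were higher in members and 485 (4.61%) were lower at an adjusted p under 0.05 (8.96% in either direction), with a median log2 difference of -0.03 over all genes tested. The class II, interferon-gamma and resident lists contain genes that move with those the rule split on, so their counts describe how the classes were cut and are given without p-values. Levels below are CPM of the summed UMIs of a class in a library, and differences are on edgeR's log2 scale with n = 5 libraries per class.

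Several class II genes outside the rule were higher in members than in resident-like macrophages. H2-Eb1, the beta chain of the I-E molecule, stood at 10096, 11799, 12848, 10098 and 12155 CPM in members and at 7239, 4097, 4312, 6884 and 4057 in resident-like macrophages. The members were higher in each library, with a log2 difference of 1.22 (SE 0.20). Of 14 listed genes tested, 7 were called higher and 1 lower. They included the peptide-exchange chains H2-DMa (0.65, SE 0.17), H2-DMb1 (1.09, SE 0.17) and H2-DMb2 (1.91, SE 0.28), the coactivator Ciita (0.95, SE 0.17) and Ctss, the protease that trims the invariant chain (0.48, SE 0.11). Of these, H2-DMb2 had a UMI in only 1.94% to 7.69% of members, with 36.4% to 100% of its UMIs in 3 cells of a library. The gene called lower was March1 (fell by 0.56, SE 0.16), a ubiquitin ligase that removes class II from the cell surface. The DM inhibitor chain H2-Oa was called as well, from 8, 3, 9, 3 and 2 UMIs in members against 3, 2, 0, 3 and 2 in the larger resident-like class. The calls of H2-DMa, Ctss and March1 were each lost without disease 5 and without control 2. The gap in H2-Eb1 was widest in control 2, disease 3 and disease 5, the libraries in which resident-like macrophages had the lowest class II shares. Of 15 MHC class I genes, 0 were called by edgeR (5 at an unadjusted p under 0.05) and 0 by DESeq2.

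Promoters are shown for the 5 class II chain genes (H2 symbols) outside the rule that were called higher and have a RefSeq promoter entry. The promoter of Ctss was not searched. In class II promoters a Y box, whose core reads GATTGG, is a known binding site of the factor NF-Y beside the sites that recruit Ciita. Each sequence is the 150 bases before the RefSeq start of the gene on mouse chromosome 17 (GRCm38.p6, plus strand, written 5′ to 3′), with GATTGG or its reverse complement in capitals. The windows are chr17:34305717-34305866 for H2-Eb1, chr17:34153041-34153190 for H2-DMb1, chr17:34145099-34145248 for H2-DMb2 and chr17:34092229-34092378 for H2-Oa. H2-DMa has a pair of starts, with the windows chr17:34122682-34122831 (start A) and chr17:34125368-34125517 (start B).
H2-Eb1: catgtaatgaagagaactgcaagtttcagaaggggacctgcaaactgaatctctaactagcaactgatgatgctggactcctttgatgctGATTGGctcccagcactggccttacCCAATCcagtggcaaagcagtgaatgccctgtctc
H2-DMb1: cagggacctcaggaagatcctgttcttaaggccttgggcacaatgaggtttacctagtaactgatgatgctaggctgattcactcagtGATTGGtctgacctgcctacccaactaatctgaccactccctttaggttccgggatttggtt
H2-DMb2: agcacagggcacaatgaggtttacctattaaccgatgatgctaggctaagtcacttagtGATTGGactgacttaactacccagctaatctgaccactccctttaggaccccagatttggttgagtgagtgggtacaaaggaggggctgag
H2-Oa: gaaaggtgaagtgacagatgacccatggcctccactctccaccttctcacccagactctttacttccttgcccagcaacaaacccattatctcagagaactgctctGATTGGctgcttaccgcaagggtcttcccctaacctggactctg
H2-DMa, start A: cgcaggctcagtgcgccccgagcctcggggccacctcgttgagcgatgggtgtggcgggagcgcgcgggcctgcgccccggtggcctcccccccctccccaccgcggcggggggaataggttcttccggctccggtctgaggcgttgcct
H2-DMa, start B: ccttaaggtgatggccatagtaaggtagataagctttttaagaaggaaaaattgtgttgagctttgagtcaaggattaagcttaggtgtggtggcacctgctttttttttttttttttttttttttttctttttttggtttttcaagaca
Of 8 windows from 7 class II chain genes with a RefSeq promoter entry, 75% held the motif on either strand, against 10.9% of 32851 promoter windows of the same length from 27025 genes. H2-Eb1 held 2 matches, and neither of the 2 windows of H2-DMa held one. A match describes the letters of a window only.

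Most of the monocyte-derived macrophage genes tested were higher in members. Ccr2 itself, which the rule did not use but which had been proposed as a marker of these cells, stood at 166, 185, 138, 181 and 251 CPM in members and at 28.4, 38.4, 22.6, 31.8 and 17.5 in resident-like macrophages. The ranges did not overlap, and the log2 difference was 2.80 (SE 0.20, edgeR adjusted p = 1.42e-06). Of 16 listed genes, 9 were called higher and 1 lower, with a median log2 difference of 1.08. The others higher included Napsa, an aspartic protease (3.17, SE 0.31), the matrix protein Fn1 (1.62, SE 0.22), the fractalkine receptor Cx3cr1 (1.00, SE 0.18) and Thbs1, thrombospondin 1 (1.27, SE 0.19). Napsa had a UMI in only 2.91% to 10% of members, with 37.5% to 100% of its UMIs in 3 cells of a library. Classical monocyte transcripts came from few cells. Ly6c2 had 76, 0, 15, 39 and 4 UMIs in 5, 0, 4, 5 and 2 members, and Chil3 15, 1, 57, 99 and 1 UMIs in 1, 1, 2, 6 and 1 members.

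**Figure D2:**
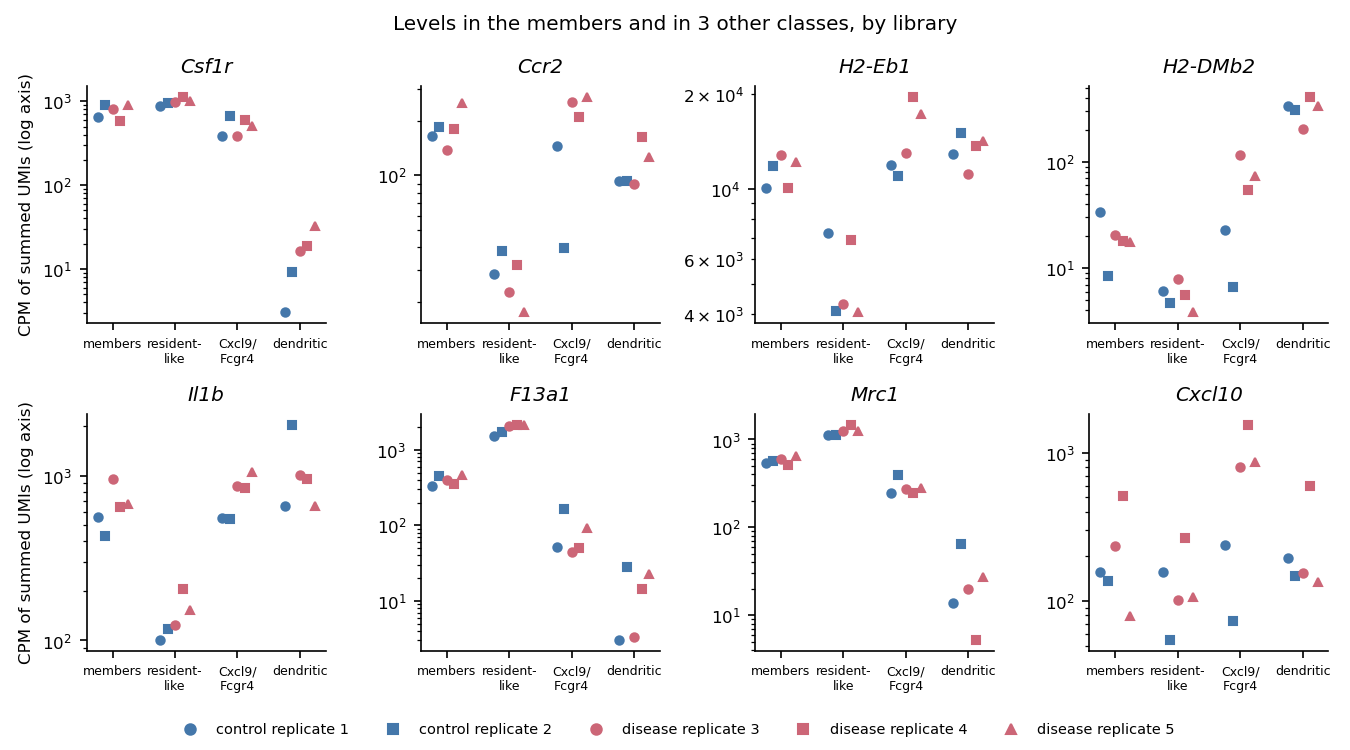
Level of 8 genes (CPM, log axis) in members, resident-like macrophages, Cxcl9 or Fcgr4 macrophages and dendritic cells, 1 point per library. Ccr2 lies higher in members (138 to 251) than in resident-like macrophages (17.5 to 38.4), and Csf1r lies higher in members (584 to 909) than in dendritic cells (3.04 to 32.9).

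Several inflammatory cytokine genes were also higher in members. Il1b, which encodes the precursor of interleukin-1 beta, stood at 558, 429, 955, 641 and 676 CPM in members and at 101, 117, 124, 206 and 153 in resident-like macrophages, a log2 difference of 2.30 (SE 0.18, edgeR adjusted p = 2.06e-06). It had a UMI in 35.0% to 51.5% of members, and the 3 richest cells of a library held 20.9% to 47.4% of its UMIs. Nlrp3, the sensor of the inflammasome that matures interleukin-1 beta, was 1.32 higher (SE 0.14). Il1rn, the receptor antagonist, was 1.81 higher (SE 0.31), and Ptgs2, which makes prostaglandins, was 1.81 higher (SE 0.19). Both came from few cells: Il1rn had a UMI in 8.74% to 18.5% of members and Ptgs2 in 4.85% to 13.8%, and the 3 richest cells of a library held 39.0% to 64.7% of the Il1rn and 29.4% to 90.9% of the Ptgs2 UMIs. In all, 8 of 16 cytokine and NF-kappaB feedback genes were called higher and Ier3, an early response gene, lower. Among chemokines, 6 of 15 were higher and 5 lower: the neutrophil attractant Cxcl2 rose by 0.80 (SE 0.15), the chemokine Ccl4 by 0.96 (SE 0.15) and the transmembrane chemokine Cxcl16 by 0.92 (SE 0.12), while Ccl8 (log2 -1.74, SE 0.23) and the eotaxin Ccl24 (log2 -2.78, SE 0.22) were lower. The edgeR adjusted p of the genes named here was 0.00279 or lower, except for Ier3 (log2 -0.48, SE 0.13, adjusted p = 0.028).

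Of 13 Fc, complement and lectin receptor genes, 3 were higher in members, 1 was lower and 9 were not called (median log2 -0.02). Itgax, which encodes CD11c, stood at 36.7, 25.3, 26.4, 27.1 and 24.1 CPM in members and between 0.637 and 3.54 in resident-like macrophages, a log2 difference of 4.13 (SE 0.39, edgeR adjusted p = 1.37e-05). It had a UMI in only 2.91% to 8.33% of members, and the 3 richest cells of a library held 36.4% to 100% of its UMIs. Clec4e, the Mincle receptor for mycobacterial and damage glycolipids, was 2.64 higher (SE 0.25) but was found in only 4.62% to 10.1% of members, with 40.5% to 91.1% of its UMIs in 3 cells of a library. The C-type lectin Clec10a was lower (log2 -1.61, SE 0.17). Of 15 lipid-associated macrophage genes, 6 were higher, among them the fatty acid carrier Fabp5 (1.42, SE 0.21), lipoprotein lipase Lpl (0.86, SE 0.12) and the galectin Lgals3 (1.63, SE 0.13), and 3 were lower. The secreted matrix protein Spp1 had the widest difference of these (4.20, SE 0.36), but its level was uneven: 16.0, 69.5, 38.6, 467 and 59.5 CPM, with 98.9% of the UMIs of disease 4 in 3 cells. Outside the lists, the survival gene Bcl2a1d (2.37, SE 0.17), the chemerin receptor Ccrl2 (2.21, SE 0.17), Rgs1, a brake on chemokine receptor signalling (1.83, SE 0.13), and Cd72 (1.58, SE 0.12) were among the most increased genes in members by the naming rule. Of 8 cell cycle genes, 0 were called by edgeR, 0 had an unadjusted p under 0.05 and 0 were called by DESeq2, and 7, 0, 1, 4 and 3 members carried at least 2 cell cycle UMIs.

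All 16 tested resident macrophage genes outside the rule were lower in members, with a median log2 difference of -1.50. Mrc1 stood at 538, 568, 605, 517 and 652 CPM in members and between 1125 and 1480 in resident-like macrophages (log2 -1.03, SE 0.12). F13a1 stood at 331, 453, 402, 356 and 467 against 1527 to 2159 (log2 -2.18, SE 0.12). Neither gene overlapped between the classes, and neither was near 0 in members. Fcna, the ficolin that binds bacterial sugars, was close to absent, with 3.34, 10.5, 2.03, 9.03 and 4.83 CPM against 166 to 256 (log2 -5.16, SE 0.21). Also lower were the carbonyl reductase Cbr2 (log2 -2.61, SE 0.19), the leukotriene C4 synthase Ltc4s (-3.89, SE 0.16) and the chemokine Pf4 (-1.72, SE 0.20). Gas6, a ligand of receptors for apoptotic cells (log2 -1.67, SE 0.11), and the growth factor Igf1 (-0.83, SE 0.12) followed them. Of 22 interferon-gamma response genes, 8 were higher in members, among them Gbp2 and Gbp3, and 0 lower. In the remaining lists, 1 of 18 type I interferon genes was higher and 1 lower, 0 of 15 immediate early and dissociation stress genes were higher and 2 lower (Jun and Ier2), 0 of 13 clock and glucocorticoid genes were higher and 3 lower, and 3 of 16 core macrophage genes were higher and 2 lower. Thinned to 2000 UMIs per cell, 353 genes were higher and 284 lower. The counts were 309 and 266 without control 1 and 304 and 290 without disease 5, and DESeq2 called 343 and 248. An alternative chosen after seeing the data left out cells with fibroblast or endothelial transcripts from both classes. It also left out members with few macrophage markers, a limit not applied to resident-like macrophages. The counts rose to 840 and 786.

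**Figure D3:**
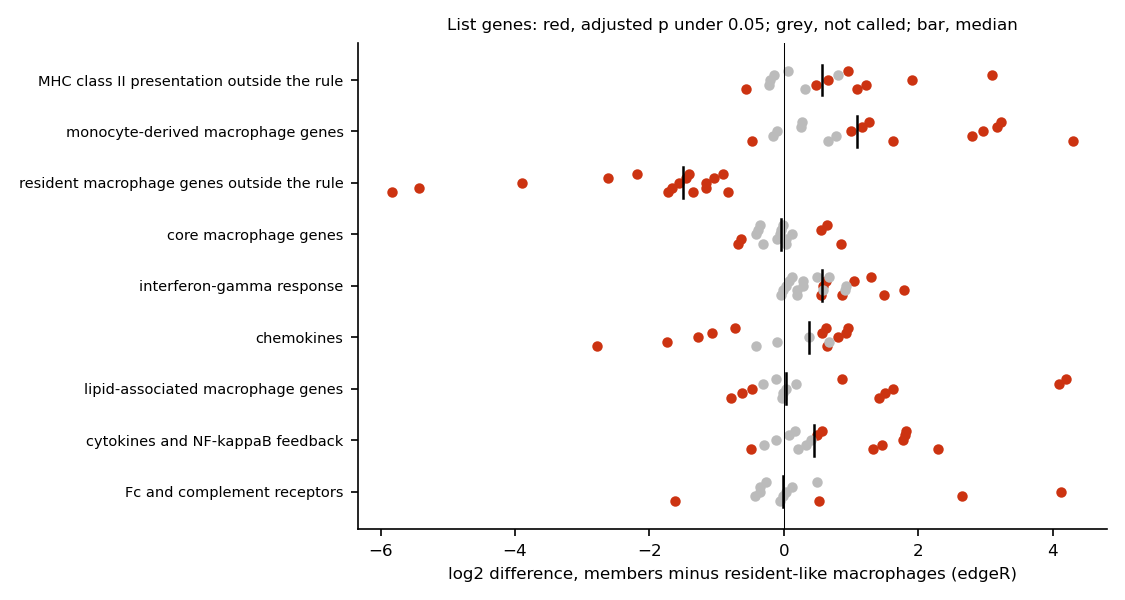
Log2 difference of members minus resident-like macrophages for the genes of 9 lists, 1 point per gene, red where the edgeR adjusted p was under 0.05, with a bar at the list median. All 16 resident genes lie below 0 (median -1.50) and 9 of 16 monocyte-derived macrophage genes were called higher.

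The Cxcl9 or Fcgr4 macrophages, C1q-positive cells with transcripts of interferon-gamma targets, had more interferon-response and fewer resident transcripts than members. Members were higher in 539 of 7711 genes (6.99%) and lower in 380 (4.93%; 11.9% in either direction), with a median log2 difference of 0.04 over all genes. Of 24 interferon-gamma response genes, 0 were higher and 17 lower (median log2 -1.36), which describes the limit on the interferon target Cxcl9. Cxcl10, a second ligand of Cxcr3, stood at 157, 137, 236, 511 and 78.8 CPM in members and at 238, 72.7, 807, 1551 and 873 in these macrophages, lower in members in 4 of 5 libraries, and its call was lost when control 1 or any 1 of the 3 disease libraries was left out. The itaconate enzyme Acod1 (log2 -2.43, SE 0.23), the checkpoint ligand Cd274 (-2.20, SE 0.30), the costimulatory receptor Cd40 (-2.15, SE 0.29) and the guanylate-binding protein Gbp2 (-2.05, SE 0.39) were all lower. The widest differences were those of Ccl8, an attractant of monocytes and T cells (log2 -4.32, SE 0.34), and the protease inhibitor Serpina3g (-4.03, SE 0.30), among the genes the naming rule gave. Class I presentation was lower in 9 of 15 genes, including B2m, the light chain of class I (log2 -0.76, SE 0.12), and Psmb9, an immunoproteasome subunit (log2 -1.17, SE 0.15). Of 13 class II genes outside the rule, 0 were higher in members and 3 lower (H2-Oa, Ctss and Cd40), with a median log2 difference of -0.38 and 2 higher by value. The cytokine list went both ways, with 5 of 16 higher (Nlrp3 and the tumour necrosis factor gene Tnf among them) and 3 lower: Ptgs2 (log2 -1.46, SE 0.19), Il1rn (-1.16, SE 0.31) and the anti-inflammatory cytokine Il10. Il1b was not called (log2 -0.30, SE 0.14, edgeR adjusted p = 0.189). Of 15 monocyte-derived macrophage genes, 0 were higher and 2 lower (Napsa and Cd52).

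Several resident genes were higher in members than in the Cxcl9 or Fcgr4 macrophages. Both classes could have at most 1 UMI of the resident genes of the rule, and the deeper Cxcl9 or Fcgr4 macrophages met this limit at a lower level, so the counts describe how the classes were cut. Mrc1 in the Cxcl9 or Fcgr4 macrophages was 249, 397, 272, 246 and 279 CPM, below the members in each library, and F13a1 was 51.9, 165, 43.8, 50.9 and 93.1. Of 14 resident genes tested, 12 were higher in members and 1 lower. They included F13a1 (2.44, SE 0.19), Cbr2 (2.21, SE 0.26), the scavenger receptor Stab1 (1.28, SE 0.19) and the transcription factor Maf (0.98, SE 0.14). On thinned cells, which were still chosen at unequal depth, 11 of 13 were higher and 0 lower, beside 5.08% and 4.69% of 4073 genes, with F13a1 at 2.47. In addition, 10 of 15 immediate early and dissociation stress genes were higher in members, among them Egr1 (1.16, SE 0.17) and Hspa1a, whose reads could be shared with its near copy Hspa1b (1.05, SE 0.17). Ccr2 stood at 145, 39.7, 253, 210 and 272 CPM in the Cxcl9 or Fcgr4 macrophages, overlapping the members, and was not called. The Cxcl9 or Fcgr4 macrophages numbered 20 and 31 cells in control 2 and disease 3. On thinned cells 207 genes were higher and 191 lower, and without control 1 the counts were 146 and 146, without disease 4 they were 241 and 157, and without disease 5 they were 336 and 187.

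Dendritic cells are another class II-rich myeloid cell type of the heart. They were compared in 4 libraries, since control 2 held 10. Of 7327 genes, 1503 (20.5%) were higher in members and 1320 (18%) lower (38.5% in either direction), with a median log2 difference of 0.04 over all genes. Members had at least 3 C1q UMIs and dendritic cells at most 1, and the core macrophage list contains genes that move with C1q. Its counts therefore describe how the classes were cut: 14 of 16 genes were higher in members and 0 lower. Csf1r stood at 657, 808, 584 and 909 CPM in members of these libraries, against 3.04 to 32.9 in dendritic cells (log2 5.18, SE 0.30). Lyz2, lysozyme, was 3.54 higher (SE 0.14), the lipid carrier Apoe 6.52 (SE 0.34) and Adgre1, the F4/80 antigen, 4.24 (SE 0.30). The complement receptor C3ar1 had 819, 310, 511 and 414 UMIs in members and 5, 0, 6 and 3 in dendritic cells.

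Within the class II pathway the order depended on the gene. H2-Eb1 differed little (log2 -0.39, SE 0.13), and its call was lost on thinned cells, where the difference was -0.07. H2-DMb2 stood at 33.4, 20.3, 18.1 and 17.7 CPM in members and at 339, 205, 410 and 337 in dendritic cells, without overlap (log2 -4.01, SE 0.25). The DM inhibitor chains H2-Oa (log2 -5.24, SE 0.38) and H2-Ob (-4.09, SE 0.25) were lower too. Ctss was higher in members by 1.02 (SE 0.14) and Lgmn, a lysosomal endopeptidase, by 2.80 (SE 0.18). Of 13 class II genes, 4 were higher and 8 lower. The dendritic cell transcription factor Irf8 (log2 -2.76, SE 0.18) and the proliferation genes Mki67 (-1.74, SE 0.26) and Top2a (-2.04, SE 0.40) were lower in members. The chemokine Ccl22 had 1, 0, 2 and 1 UMIs in members and 46, 173, 80 and 143 in dendritic cells. Of 17 chemokines, 12 were higher in members, Cxcl2 by 6.22 (SE 0.41). Dendritic cells were deeper, with medians of 12055.5 to 15154 UMIs, and thinning left 553 genes higher and 519 lower.

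Members with and without a Ccr2 UMI were then compared within libraries. There were 63, 26, 18, 32 and 34 members with one, and they were deeper, with medians of 5129 to 7932 UMIs against 2731 to 4452, so that detecting Ccr2 and depth moved together. Without adjustment for depth, 274 of 5477 genes (5%) were higher and 261 (4.77%) lower in the Ccr2-detected cells (9.77% in either direction), with a median log2 difference of 0.00 over all genes. A comparison added after seeing the data thinned every member of at least 2000 UMIs to 2000 and left out the shallower ones. This changes which cells count as Ccr2-detected. In it, 21 of 1928 genes were higher (1.09%) and 43 lower (2.23%).

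S100a4, a calcium-binding protein of monocytes, stood at 332, 215, 486, 535 and 345 CPM in members with a Ccr2 UMI and at 19.3, 106, 47.1, 80.4 and 31.7 in those without, higher in each library (log2 3.05, SE 0.30, edgeR adjusted p = 2.62e-06), and on thinned cells the difference was 2.38 and was still called. Napsa stood at 75.8, 20.8, 106, 105 and 70.8 against 2.04, 6.04, 8.32, 10.3 and 2.44 (log2 3.96, SE 0.37). Retnla, a secreted product of alternatively activated macrophages, had 1219, 11, 249, 802 and 1274 UMIs in the Ccr2-detected members and 30, 6, 26, 51 and 2 in the rest. In each library the 3 richest cells held 82% to 97% of the Retnla UMIs. Chil3 was similar, with 15, 1, 56, 96 and 1 UMIs against 0, 0, 1, 3 and 0. Il1rn (2.45, SE 0.29), the elastase Mmp12 (3.12, SE 0.42) and Lgals3 (1.58, SE 0.29) were also higher, while on thinned cells none of Napsa, Retnla, Il1rn, Mmp12 and Lgals3 was called.

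Without adjustment for depth, several class II genes were higher with Ccr2 and several resident genes lower, and fewer were called on thinned cells. H2-Eb1 stood higher in Ccr2-detected members of each library (log2 0.54, SE 0.09, edgeR adjusted p = 0.000759; 0.29 on thinned cells, still called, but not called without the members with stromal transcripts). Of 10 class II genes, 5 were higher and 0 lower, while on thinned cells 1 of 8 was (H2-Eb1). H2-DMb1 was 0.79 higher (SE 0.14; 0.49 and not called on thinned cells). H2-DMb2 was called 2.18 higher (SE 0.53), but not by DESeq2, and without control 1 it fell below the filter on low counts. It had 45, 0, 6, 5 and 6 UMIs in Ccr2-detected members against 5, 4, 4, 9 and 5 in the rest, so control 1 held most of them and control 2 went the other way. Stab1 stood at 56.4, 187, 22.8, 73.5 and 75.5 CPM against 229, 260, 283, 190 and 259 (log2 -1.51, SE 0.26; -0.90, not called, on thinned cells). Gas6 was lower (log2 -1.15, SE 0.27; -2.0 on thinned cells), as was Cbr2 (-1.09, SE 0.20; -0.91, not called, on thinned cells). Of 14 resident genes, 7 were lower and 0 higher (4 and 0 of 13 on thinned cells, 3 and 0 of 14 without control 1), and of 14 monocyte-derived macrophage genes, 11 were higher and 1 lower (5 and 0 of 13 on thinned cells). Fibroblast transcripts moved with the split as well: Col3a1, a collagen chain (log2 -1.87, SE 0.29), and the complement gene C4b (-2.85, SE 0.39) were lower in Ccr2-detected members. Without the members that carried fibroblast or endothelial transcripts or few macrophage markers, 147 genes were higher and 151 lower. Leaving out control 1 gave 108 higher and 130 lower of 4256 genes (2.54% and 3.05%), and leaving out disease 5 gave 157 and 168.

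**Figure D4:**
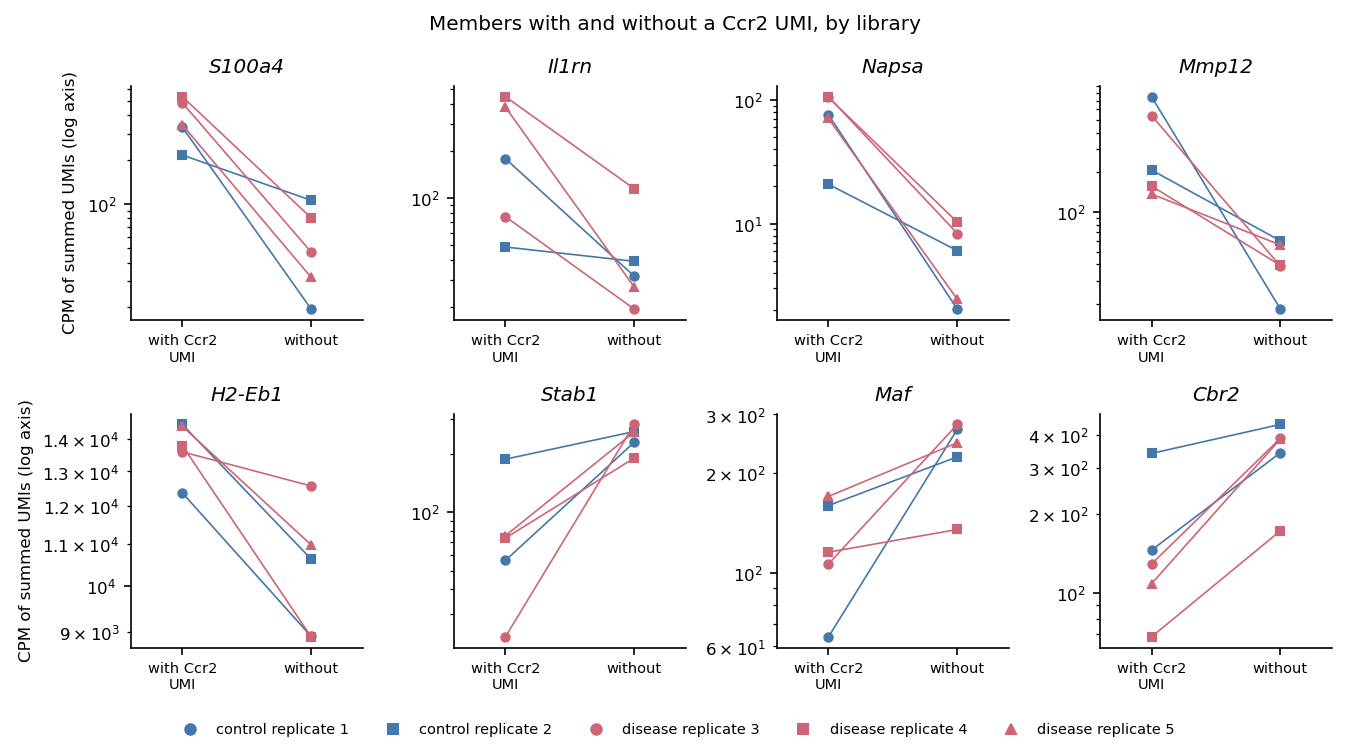
Level of 8 genes (CPM, log axis) in members with and without a Ccr2 UMI, with lines joining the same library. S100a4 and H2-Eb1 are higher in Ccr2-detected members of each library and Stab1 and Cbr2 lower, while the cells with a Ccr2 UMI were also deeper.

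Between genotypes, most of the genes that changed in members were lower in disease, and neither class II genes nor Ccr2 were among them. In the comparison of 3 disease with 2 control libraries, edgeR called 7 of 6741 genes higher (0.104%) and 265 lower (3.93%) in disease (4.04% in either direction), with a median log2 difference of 0.04 over all genes. Ccr2 levels were 166 and 185 CPM in control and 138, 181 and 251 CPM in disease members (log2 0.20, SE 0.29, edgeR adjusted p = 0.79), with overlapping groups. H2-Eb1 did not pass the test either (log2 0.18, SE 0.22, adjusted p = 0.736), and of 11 class II genes 0 were called by edgeR (2 at an unadjusted p under 0.05, beside 1103 of all genes) and 0 by DESeq2. These tests do not show equal levels: in simulated data of this design (6094 genes), 11 of 100 genes changed 2-fold and 90 of 100 changed 4-fold were recovered. The changed genes were drawn from the more abundant ones only, so recovery at low levels was not measured.

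A few genes were higher in disease. Ccl4, a chemokine that attracts monocytes and T cells, stood at 916 and 947 CPM in control members and at 1926, 2053 and 1477 in disease members, without overlap, as did 11.4% of all genes tested in this direction (log2 1.04, SE 0.19, edgeR adjusted p = 0.0308). Msrb1, a methionine sulfoxide reductase, stood at 53.4 and 33.7 against 132, 172 and 143 (log2 1.81, SE 0.27, adjusted p = 0.0149). Clec4d, a lectin receptor that pairs with Mincle, stood at 30.7 and 31.6 against 58.9, 76.1 and 78.8 (log2 1.28, SE 0.27, adjusted p = 0.0447). The call for Ccl4 was lost without control 1, control 2, disease 3 or disease 5 (edgeR adjusted p up to 0.293). Those for Msrb1, S100a8 and S100a9 were lost without control 1, control 2 or disease 5, and that for Clec4d without any 1 library other than disease 4. Few cells held much of these transcripts too: the 3 richest members of a library held 17.3% to 40.2% of the Ccl4 UMIs, 21.3% to 56.2% of those of Msrb1 and 30.4% to 79.3% of those of Clec4d. Clec4d had a UMI in 8.63% and 7.77% of control and in 6.19%, 13.7% and 12.3% of disease members, with overlapping groups. The other 4 were neutrophil genes. S100a8 and S100a9 together had 7 and 2 UMIs in the controls and 887, 351 and 969 in disease, of which 99.7%, 94.9% and 99.9% lay in 3 cells of a library. Slpi, with 0 and 0 against 23, 26 and 36 UMIs, and Lcn2, with 0 and 0 against 4, 50 and 23, were named after their values were seen. The resident-like macrophages of the same libraries showed 28 and 13 against 3111, 1779 and 1892 UMIs of S100a8 and S100a9, and the summed neutrophil markers of members stood at 12.7 and 25.3 against 2098, 495 and 1775 CPM. The part of neutrophil RNA in all of these calls, those of Ccl4, Msrb1 and Clec4d included, was not tested.

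Pfn1, H2afj, Rnaset2a and Crlf2, which had wide drops in disease members, were also lower in the endothelial cells and fibroblasts of the disease libraries. Pfn1, profilin, which promotes actin assembly, stood at 1836 and 1562 CPM in the control members and at 112, 83.8 and 105 in the disease members (log2 -4.00, SE 0.23, edgeR adjusted p = 0.000978). In endothelial cells Pfn1 stood at 910 and 761 against 61.7, 54.4 and 67.6, and in fibroblasts at 711 and 562 against 43.7, 38.9 and 47.3. H2afj, a variant of histone H2A, stood at 158 and 135 against 8.13, 3.87 and 3.22 in members (log2 -4.81, SE 0.37, adjusted p = 0.00242) and at 118 and 112 against 3.97, 3.86 and 4.70 in endothelial cells. The groups did not overlap for either gene in members, endothelial cells or fibroblasts; 22.3% of all genes tested lay lower in all disease than in all control members. Rnaset2a, whose reads could be shared with its near copy Rnaset2b, was lower in disease members as well (log2 -5.36, SE 0.52), and in endothelial cells it stood at 124 and 132 against 2.93, 3.86 and 6.76 CPM and in fibroblasts at 121 and 116 against 2.06, 3.37 and 5.17. Crlf2, a receptor chain for thymic stromal lymphopoietin, was lower in disease members (log2 -4.73, SE 0.32), and stood at 84.7 and 84.5 against 15.0, 1.16 and 10.4 in endothelial cells and at 28.8 and 25.7 against 6.30, 1.87 and 3.34 in fibroblasts.

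Some genes of the listed pathways were also called lower in disease members. H2-D1, a class I heavy chain with close paralogues, stood at 3540 and 2688 against 542, 895 and 470 CPM (log2 -2.23, SE 0.26, edgeR adjusted p = 0.00898), and in endothelial cells at 3984 and 3282 against 658, 909 and 694. It was 1 of 2 called among 15 class I genes, of which 8 were higher in disease by value. Irf8, a transcription factor of the interferon-gamma response, stood at 170 and 196 against 60.9, 60.6 and 53.1 (log2 -1.57, SE 0.22), Atf3, a stress-induced repressor, at 1662 and 2096 against 453, 293 and 364 (log2 -2.26, SE 0.26) and Gas6 at 159 and 137 against 60.9, 80.0 and 48.3 (log2 -1.16, SE 0.25). In endothelial cells the groups did not overlap for Atf3 (674 and 431 against 114, 126 and 149) or Gas6 (393 and 464 against 189, 167 and 190), and they did for Irf8 (26.8 and 15.6 against 11.4, 22.8 and 15.9). Of 15 immediate early and dissociation stress genes, which include Atf3, 2 were called lower (Jund and Atf3) and 0 higher, with a median log2 difference of -0.56, and 8 lay lower in all disease than in all control members. The part of tissue dissociation in these differences was not tested. The calls of H2-D1, Irf8, Atf3 and Gas6 were lost without disease 5, while those of Pfn1, H2afj and Crlf2 held without any 1 library. The genes called lower had a median GC content of 64.7% in their first 300 transcribed bases, against 58.2% for genes not called, and across 6513 genes with a mean log2 CPM of at least 4 the log2 difference and this GC content had a Spearman rho of -0.354, where genes share libraries and are not replicates. The part of GC content in these calls was not tested. Whether control and disease libraries were prepared together is not given in the sources used here, so preparation and genotype cannot be told apart. The number of genes called lower depended on single libraries: it was 37 without control 1, 31 without control 2 and 14 without disease 5.

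**Figure D5:**
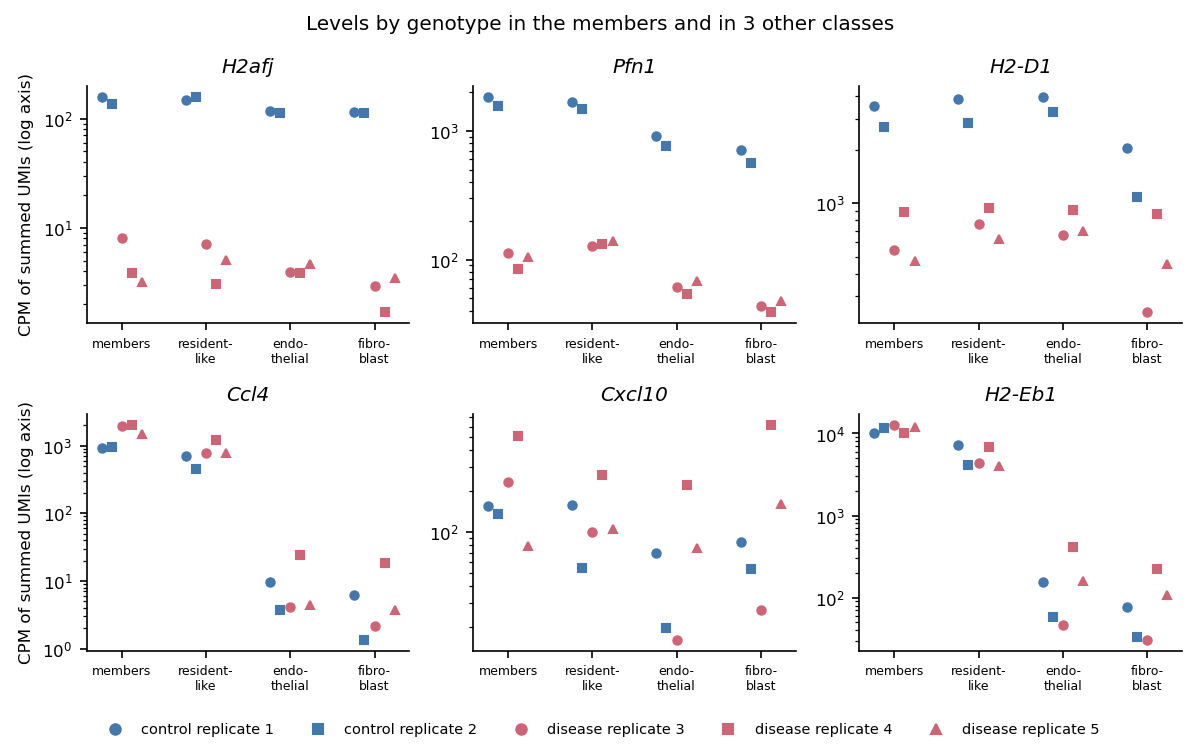
Level of 6 genes (CPM, log axis) by library in members, resident-like macrophages, endothelial cells and fibroblasts, with control and disease libraries coloured apart. Pfn1, H2afj and H2-D1 lie lower in the disease libraries of all 4 cell types, while H2-Eb1 overlaps between the groups in members.

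The interferon-gamma response of members followed 1 library. Gbp2 levels were 140 and 42.1 CPM in control and 38.6, 524 and 48.3 CPM in disease members, with disease 4 far above the rest. Cxcl10 stood at 157 and 137 against 236, 511 and 78.8. Neither gene passed the test (edgeR adjusted p = 0.657 and 0.511). The median log2 difference of 21 interferon-gamma genes was 0.73, with 18 higher by value, 0 called higher and Irf8 called lower. With DESeq2 Acod1 was called higher, and when every gene of at least 1 count was tested 9 of 25 were, Cxcl10 and Gbp2 among them, beside 97 higher (0.602%) and 628 lower (3.9%) of all 16120 genes. Without disease 4 the median was -0.40, and without the limit on Cxcl9 and Fcgr4 it was 1.45. Disease 4 also had the highest Gbp2 in endothelial cells (1077 against 177 to 405) and fibroblasts (985 against 68.2 to 289).

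The genotype difference of members was set against that of resident-like macrophages, in which 46 of 10407 genes (0.442%) were higher and 894 (8.59%) lower. The test of the difference between both effects called 1 of 10518 genes (0.00951%), the lymphoid chemokine Ccl21a, with 285 genes at an unadjusted p under 0.05 and 0 called by DESeq2. No gene of the 14 lists was called in that test, and the differences of Pfn1, H2afj and H2-D1 were not shown to differ between these macrophage classes.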

How the data were processed

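Single-cell 5′ RNA libraries (10x Genomics V1.1) of sorted heart cells were analysed as raw UMI count matrices. The counts were deposited by the authors and, per the file headers, made with Cell Ranger 3.1.0; the submitters' processing notes also list Seurat 3 and the builds GRCh38 and mm10 without roles. Cell calling and the annotation are not given in the sources used here. The members, gene lists and comparison classes were chosen with earlier results of these data known. UMIs were summed per library and class and tested with edgeR 4.0.16 (TMM normalization, filterByExpr, quasi-likelihood test, Benjamini-Hochberg adjustment, threshold 0.05) in R 4.3.3. Comparisons of classes had the library as a block and needed at least 20 cells per class and library. The SE is the log2 difference divided by the square root of F. Named genes were the 10 most changed in each direction (5 for the Ccr2 split) among called genes with a mean log2 level of at least 6 (5 for genotype), plus called list genes. The procedure was tested on simulated counts. DESeq2 1.42.0, thinning, other limits and leaving out each library were the alternatives. Scrublet in scanpy 1.11.5 marked doublets, which stayed in. Promoter windows came from RefSeq (GRCm38.p6). Ifi30 and Clec7a are not analysed here, and some values of listed genes are not reported.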

Additional observations from a re-analysis of the deposited data

Results flagged for a closer look

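The genotype effect on Ccl21a, a chemokine of lymphoid and lymphatic cells, differed between members and resident-like macrophages by 12.84 on the log2 scale (edgeR adjusted p = 0.0237, test of the difference itself). Members had 0 and 0 Ccl21a UMIs in the controls and 0, 21 and 1 in disease, so the fitted size depends on the prior count, while resident-like macrophages had 439 and 198 against 4, 4 and 3. A pair of features in the files carry this symbol. The call was lost with DESeq2 and without control 1, disease 4 or disease 5.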

How the results depend on the processing

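No paired analysis was possible because the control and disease libraries share no replicate number; comparisons between classes had the library as a block throughout. For the genotype comparison of members, the number of genes called higher (7) and lower (265) was 0 and 76 with 0 UMIs allowed in each limit, 97 and 628 with every gene of at least 1 count, 4 and 174 at a mitochondrial limit of 5%, and 20 and 534 without the limit on Cxcl9 and Fcgr4. The number higher was 11 with DESeq2, 11 when class II had to reach 0.5% of UMIs, 3 with equal numbers of members and 28 without cells with stromal UMIs. Leaving out 1 library gave 0 to 16 higher and 14 to 329 lower.

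Against resident-like macrophages, DESeq2, thinning and every gene gave 248, 284 and 808 lower. Leaving out cells with stromal UMIs from both classes, and members with few macrophage markers, gave 840 higher and 786 lower. Leaving out 1 library gave 304 to 514 higher and 266 to 465 lower. Against Cxcl9 or Fcgr4 macrophages, 0 UMIs in each limit gave 126 and 108, thinning 207 and 191, DESeq2 302 higher and every gene 640 lower. Leaving out 1 library gave 146 to 590 higher and 146 to 531 lower. Against dendritic cells, thinning gave 553 and 519. For the Ccr2 split, DESeq2 gave 101 and 96, thinning 21 and 43, no stromal cells 147 and 151, and every gene 435 lower. Leaving out 1 library gave 108 to 262 higher and 130 to 256 lower. The difference of the genotype effects had 1 gene higher and 0 lower. It had 0 higher with DESeq2, 13 higher and 2 lower with every gene, and 0 higher and 1 lower without stromal cells. Leaving out 1 library gave 0 to 2 higher and 0 to 4 lower.

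Both share differences changed sign without the limit on Cxcl9 and Fcgr4 (0.832 and 5.50), and were negative again when disease 4 was left out as well (-0.91 and -0.59). The genotype difference of Ccr2 was -0.19 with 0 UMIs in each limit. Leaving out 1 library gave -0.088 (without disease 5) to 0.36 for Ccr2, and -0.86 to 1.29 for Cd274 and -1.02 to 2.22 for Gbp2, each lowest without disease 4. Over single named genes, 1474 values kept direction and call under an alternative, 155 lost the call, 5 gained it and 4 changed sign. The cause of these changes was not tested. Depth is a limit: with 97 members in the smallest library, genes of low level such as H2-Oa and Ly6c2 rest on few molecules, and cells of 2 or more types in 1 droplet cannot be told apart from free RNA.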
